A study of Mus musculus with 4 samples.

Results

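The genes described here are the molecular chaperones, their co-chaperones and the main components of the unfolded protein response, taken from a microarray comparison of mouse liver. Members were every probe set whose single gene symbol in the platform annotation begins with Hsp, with Dnaja, Dnajb or Dnajc and a digit, or with Pdia and a digit, plus the probe sets of Atf4, Atf6, Ddit3, Xbp1, Ern1, Calr, Canx, Herpud1, Trib3, Asns, Edem1, Sel1l and Hyou1. This gave 163 of 22626 probe sets, for 79 of 12393 genes with 1 symbol. By known location the genes fell into 20 of the endoplasmic reticulum (ER), 42 of the cytosol and nucleus, 9 of mitochondria, and 7 sensors, transcription factors and stress targets. The remaining gene, Hspg2, encodes perlecan, a matrix proteoglycan and not a chaperone, and entered by its name alone.

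The Ad-lipin group was liver of adult male C57BL6 mice given an adenovirus that expressed mouse lipin 1beta, a phosphatidate phosphatase and transcriptional coactivator. The GFP control group was liver of the same kind of mice given an adenovirus for green fluorescent protein. Livers were taken on day 6 after the injection, and each group had 2 Affymetrix arrays. Both groups carried an adenovirus, whose promoter and dose are not given in the labels, and no uninjected liver was compared here. The labels give polyA RNA for Ad-lipin replicate 2 and total RNA for the other 3 samples, and nothing in them states that replicates were different mice. The p-values therefore rest on a spread between samples that could be purely technical.

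Chaperones bind unfolded stretches of protein and release them in cycles driven by ATP. Hsp70 proteins do this with J proteins (the Dnaj genes), which deliver clients and speed ATP hydrolysis, and with nucleotide exchange factors such as the Hsp110 family. Cytosol, mitochondria and ER each have their own Hsp70, and liver, which secretes most plasma proteins, is rich in the ER forms. When unfolded protein gathers in the ER, the sensors IRE1 (Ern1), ATF6 and PERK start the unfolded protein response. IRE1 splices the mRNA of Xbp1, cleaved ATF6 enters the nucleus, and PERK phosphorylates eIF2 alpha, which slows translation and favours that of ATF4. PERK shares this last step, the integrated stress response, with kinases that sense amino acid shortage, virus or heme loss. In the cytosol the heat shock factor HSF1 has the corresponding role.

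Each pathway is known for a promoter motif, and a few promoters are shown because they carry the motif of the ER, heat shock or amino acid response. RefSeq promoter windows (GRCm38.p6, 250 bases before to 50 after the annotated start) were matched for 66 of the 79 genes. The ER stress response element (ERSE, CCAAT and CCACG with 9 bases between them, either strand), bound by ATF6 and XBP1, occurred in 6 of 18 ER genes with a window, namely Calr, Canx, Dnajc3, Hsp90b1, Hspa5 and Pdia6, and in 0 of 35 cytosolic ones. Of all 26994 genes with a window, 0.137% had an ERSE. The related ERSE-II (ATTGG and CCACG with 1 base between them, either strand) occurred in Dnajb11 and Herpud1 and in 0.0445% of all genes. A strict heat shock element (GAA, TTC and GAA with 2 bases between neighbours, either strand) was found in 2 of 6 mitochondrial genes, Hspd1 and Hspe1, in 2 of 35 cytosolic genes, Hsph1 and Dnajb6, and in 0.663% of all genes. The amino acid response element (TGATGNAAN, either strand), read by ATF4, was found in 2 of 6 regulators and stress targets, Asns and Trib3, in Herpud1 and Hspa14, and in 4.5% of all genes. A match is a description of these letters and does not show binding. The windows of Hspd1 and Hspe1, which lie head to head, cover the same bases on opposite strands. The 250 bases upstream of the start follow, 5′ to 3′, for Hspa5 (chr2:34771840-34772089, plus strand), Hsp90b1 (chr10:86705445-86705694, minus strand), Herpud1 (chr8:94386179-94386428, plus strand), Hspe1 (chr1:55087898-55088147, plus strand) and Asns (chr6:7693210-7693459, minus strand). Capitals mark the motifs above. Hsp90b1 holds 2 ERSEs, 1 on each strand. Herpud1 has the amino acid response element first and the ERSE-II after it, and in Hspe1 2 heat shock elements, 1 on each strand, overlap in a single run of capitals.
Hspa5: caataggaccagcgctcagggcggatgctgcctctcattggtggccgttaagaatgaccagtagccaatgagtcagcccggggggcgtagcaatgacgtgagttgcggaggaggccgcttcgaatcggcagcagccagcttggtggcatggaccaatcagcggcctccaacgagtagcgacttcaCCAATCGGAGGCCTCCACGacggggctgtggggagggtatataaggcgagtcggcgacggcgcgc
Hsp90b1: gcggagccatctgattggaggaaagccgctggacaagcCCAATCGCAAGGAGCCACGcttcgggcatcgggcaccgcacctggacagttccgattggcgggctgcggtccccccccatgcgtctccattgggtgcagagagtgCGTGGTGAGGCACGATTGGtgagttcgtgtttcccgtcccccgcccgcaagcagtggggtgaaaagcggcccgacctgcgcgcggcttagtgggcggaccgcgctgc
Herpud1: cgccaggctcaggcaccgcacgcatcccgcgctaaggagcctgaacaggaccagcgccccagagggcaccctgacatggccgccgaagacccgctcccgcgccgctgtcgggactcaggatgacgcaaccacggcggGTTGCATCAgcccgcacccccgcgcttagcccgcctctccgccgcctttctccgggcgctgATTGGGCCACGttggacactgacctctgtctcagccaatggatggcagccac
Hspe1: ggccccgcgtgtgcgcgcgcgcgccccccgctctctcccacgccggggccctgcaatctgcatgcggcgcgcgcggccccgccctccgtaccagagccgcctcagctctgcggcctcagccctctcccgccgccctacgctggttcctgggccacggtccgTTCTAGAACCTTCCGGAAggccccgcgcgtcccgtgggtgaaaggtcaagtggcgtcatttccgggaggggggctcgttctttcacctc
Asns: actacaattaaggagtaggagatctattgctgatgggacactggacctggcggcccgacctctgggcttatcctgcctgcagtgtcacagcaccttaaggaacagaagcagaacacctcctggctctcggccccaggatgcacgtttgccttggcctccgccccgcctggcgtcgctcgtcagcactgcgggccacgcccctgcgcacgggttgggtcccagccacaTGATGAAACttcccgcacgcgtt

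Signals are MAS5 values in arbitrary units, given below in the order replicate 1, replicate 2. Median signals of the arrays lay between 582 and 746. GFP control replicate 2 stood apart, with a mean correlation with the other arrays of 0.731, against 0.781 to 0.793 for the others, and with the largest excess of the 3' over the 5' actin probe set, which grows as RNA breaks down (4.22, against 1.77 to 2.86). Lpin1 was higher than in both GFP arrays in Ad-lipin replicate 2 alone: its brighter probe set read 3854 and 11087 in the Ad-lipin arrays and 7082 and 4632 in the GFP arrays, a log2 difference of 0.19 ± 0.45. On the other probe set Lpin1 read 2261 and 6719 in the Ad-lipin arrays and 2730.1 and 1430.2 in the GFP arrays (0.98 ± 0.53). The array labelled Ad-lipin replicate 1 was thus within or below the control range for the delivered gene, and every direction below rests on that label. Whether these probe sets read the RNA made from the virus is not known here. The 8 hepatocyte markers tested had a median log2 difference of 0.11. They summed to 2679034 and 3164638 in the Ad-lipin arrays and 1916317 and 4184584 in the GFP arrays. Their median deviation from the mean of all 4 arrays was -0.56 in GFP control replicate 1 and 0.50 in GFP control replicate 2. The 4 T and NK cell markers tested had log2 differences below 0. Their summed signals were 2740 and 1142 in the Ad-lipin arrays and 3475 and 3677 in the GFP arrays. The 7 Kupffer cell and macrophage markers summed to 26295 and 19882 in the Ad-lipin arrays and 25867 and 11616 in the GFP arrays. Of these 7, 4 had log2 differences above 0 and 3 below. Most of the T and NK cell markers were bright enough to test through the GFP arrays alone. The part of these marker differences in the values below was not tested. In whole liver, fewer cells of a type and less RNA per cell cannot be told apart.

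No chaperone or stress gene passed the test. Signals were raised to a floor of 119.5, taken to log2, and fitted with limma on the 13576 probe sets with a geometric mean signal of at least 373. Of the members, 122 of 163 probe sets and 70 of 79 genes were bright enough to be tested. At a limma adjusted p under 0.05, 0 of the 122 were called in either direction, as were 0% of all probe sets tested in each direction. The adjusted p of the member probe sets ran from 0.962 to 0.998. At an unadjusted p under 0.05, 6 member probe sets were higher and 4 lower in Ad-lipin livers, 4.92% and 3.28%, against 2.47% and 1.92% of all probe sets tested. A gene is given below by its brightest tested probe set, and by that measure 4 member genes were higher (5.71%, against 2.66% of all 8493 genes tested) and 2 lower (2.86%, against 1.97%). The 4 were Herpud1, Hspb8, Dnajb2 and Dnajc12, and the 2 were Dnajc1 and Asns. All log2 differences are Ad-lipin minus GFP control on the floored scale, with limma's standard error and n = 2 arrays per group, and none of those quoted for a single gene passed adjustment.

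**Figure D1:**
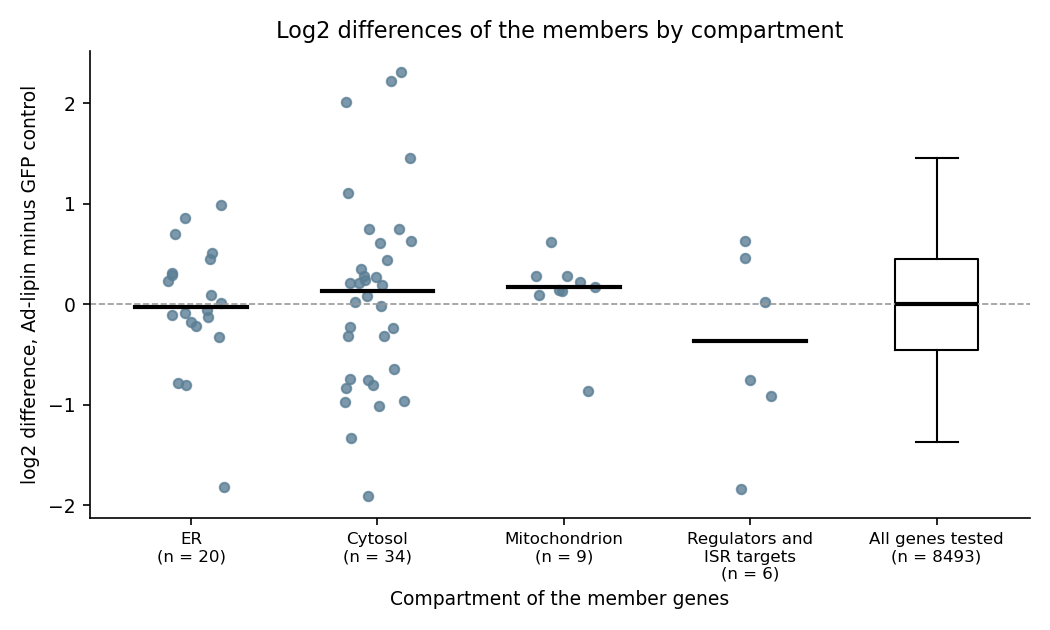
Each point is the log2 difference, Ad-lipin minus GFP control, of 1 tested member gene, by compartment, and thick lines are medians. The box on the right gives the quartiles, with whiskers at percentiles 5 and 95, of all 8493 genes tested. The medians lie between -0.37 for the regulators and 0.18 for the mitochondrial genes.

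The ER genes lay close to 0, with a median size of the log2 difference of 0.30 against 0.45 over all genes tested. All 20 were bright enough to test, with a median geometric mean signal of 4431, against 1160 for all genes tested. Their median standard error was 0.40, against 0.66, and the part of brightness in the smaller size was not tested. Their median log2 difference was -0.023 over a range of -1.82 to 0.99, with 10 above 0 and 10 below. For all genes tested the median was 0.0015. Of the 20, 2 had every Ad-lipin value above every GFP value and 1 had the reverse, which in all genes tested were 17.3% and 16.0%. The only ER log2 difference beyond 1 in size, -1.82 for Dnajc14, came from a gene that passed the brightness filter through the GFP arrays alone, and its other probe sets lay above 0.

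Hspa5, which encodes BiP, the Hsp70 of the ER and the usual readout of ER stress, was among the brightest members. Its signals were 66454 and 54797 in the Ad-lipin arrays and 62858 and 42304 in the GFP arrays, a log2 difference of 0.23 ± 0.37. The groups overlapped, since GFP control replicate 1 lay between the Ad-lipin arrays. A dimmer Hspa5 probe set gave 0.65, with 7975 and 6595 in the Ad-lipin arrays and 6407 and 3322 in the GFP arrays. Without GFP control replicate 2 the brighter probe set stood at -0.059. Hsp90b1, the ER Hsp90 known as GRP94, read 10972 and 9011 in the Ad-lipin arrays and 14130.4 and 6154 in the GFP arrays, and both Ad-lipin values fell between the 2 controls. Its log2 difference of 0.093 ± 0.39 was 0.69 without GFP control replicate 1 and -0.51 without GFP control replicate 2. Hyou1, the ER Hsp110 that exchanges nucleotide on BiP, had 38844 and 25722 in the Ad-lipin arrays and 28121 and 42246 in the GFP arrays, a difference of -0.12 ± 0.36.

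The lectin chaperones, which hold newly made glycoproteins until they fold, overlapped between the groups. Calr (calreticulin) read 65152 and 47469 in the Ad-lipin arrays and 57934 and 28554 in the GFP arrays, a log2 difference of 0.45 ± 0.40, and its 3 probe sets ran from 0.32 to 0.51. The value was -0.059 without GFP control replicate 2, the lowest Calr array. Canx (calnexin), the membrane-bound relative, read 6836 and 6050.3 in the Ad-lipin arrays and 4540 and 6124 in the GFP arrays, a difference of 0.29 ± 0.35, while its 2 dimmer probe sets gave -0.37 and -0.77.

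The protein disulfide isomerases, which form and reshuffle disulfide bonds, were among the members with overlapping groups. Pdia3 (ERp57), the partner of calnexin and calreticulin, read 4140.3 and 3582 in the Ad-lipin arrays and 4940.1 and 2949 in the GFP arrays (0.013 ± 0.40). Pdia6 read 6821 and 5013 in the Ad-lipin arrays and 7104 and 3148 in the GFP arrays (0.31 ± 0.41), and Pdia4 (ERp72) 1800.4 and 616 in the Ad-lipin arrays and 2253 and 1459.5 in the GFP arrays (-0.78 ± 0.63). In all 3 an Ad-lipin value lay between the GFP values or above one of them. The Pdia4 value came from Ad-lipin replicate 2 and stood at -0.010 without it.

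The J proteins of the ER lumen bring clients to BiP, and they lay on both sides of 0. Dnajb9 (ERdj4), which also restrains IRE1, was close to 0 in difference, with 5996 and 6576 in the Ad-lipin arrays and 6994 and 6119 in the GFP arrays (-0.059 ± 0.33). Dnajb11 (ERdj3) read 5632 and 3087 in the Ad-lipin arrays and 3355 and 2549.5 in the GFP arrays (0.51 ± 0.42). Dnajc3 (p58IPK), an inhibitor of PERK and other eIF2 alpha kinases, read 3820.3 and 6939.9 in the Ad-lipin arrays and 7497 and 5564 in the GFP arrays (-0.33 ± 0.38), and its 4 tested probe sets ran from -0.41 to 0.62. Dnajc1, a J protein of the ER membrane that binds BiP and ribosomes, was the ER gene with the smallest p on the lower side. It read 3390.1 and 4263 in the Ad-lipin arrays and 6429 and 6883 in the GFP arrays, and both Ad-lipin arrays lay below both GFP arrays. The log2 difference was -0.81 ± 0.35 (limma unadjusted p = 0.0372, adjusted p = 0.962), from -0.97 to -0.64 over the fits without 1 array, and the other tested Dnajc1 probe sets gave -0.30 and -0.57.

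Herpud1, a membrane protein of the complex that sends misfolded ER proteins to the proteasome (ER-associated degradation), stood out on the higher side. It read 11755 and 13157 in the Ad-lipin arrays and 6525 and 6024 in the GFP arrays, 1.98-fold higher, with the arrays of each group close together. The log2 difference was 0.99 ± 0.32 (limma unadjusted p = 0.00756, adjusted p = 0.962), the smallest unadjusted p of any member probe set, and it ran from 0.91 to 1.07 over the fits without 1 array. The dimmer Herpud1 probe set gave 0.50, with 5175 and 7713 in the Ad-lipin arrays and 3417 and 5879.6 in the GFP arrays, which overlapped. The groups overlapped in the other members of this machinery. Sel1l, the adaptor of the HRD1 ubiquitin ligase, read 2359.9 and 2786 in the Ad-lipin arrays and 2170.3 and 4092 in the GFP arrays (-0.22 ± 0.44), and Edem1, which recognises trimmed glycans on misfolded proteins, read 3711 and 3666 in the Ad-lipin arrays and 3615 and 4243 in the GFP arrays (-0.087 ± 0.37).

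**Figure D2:**
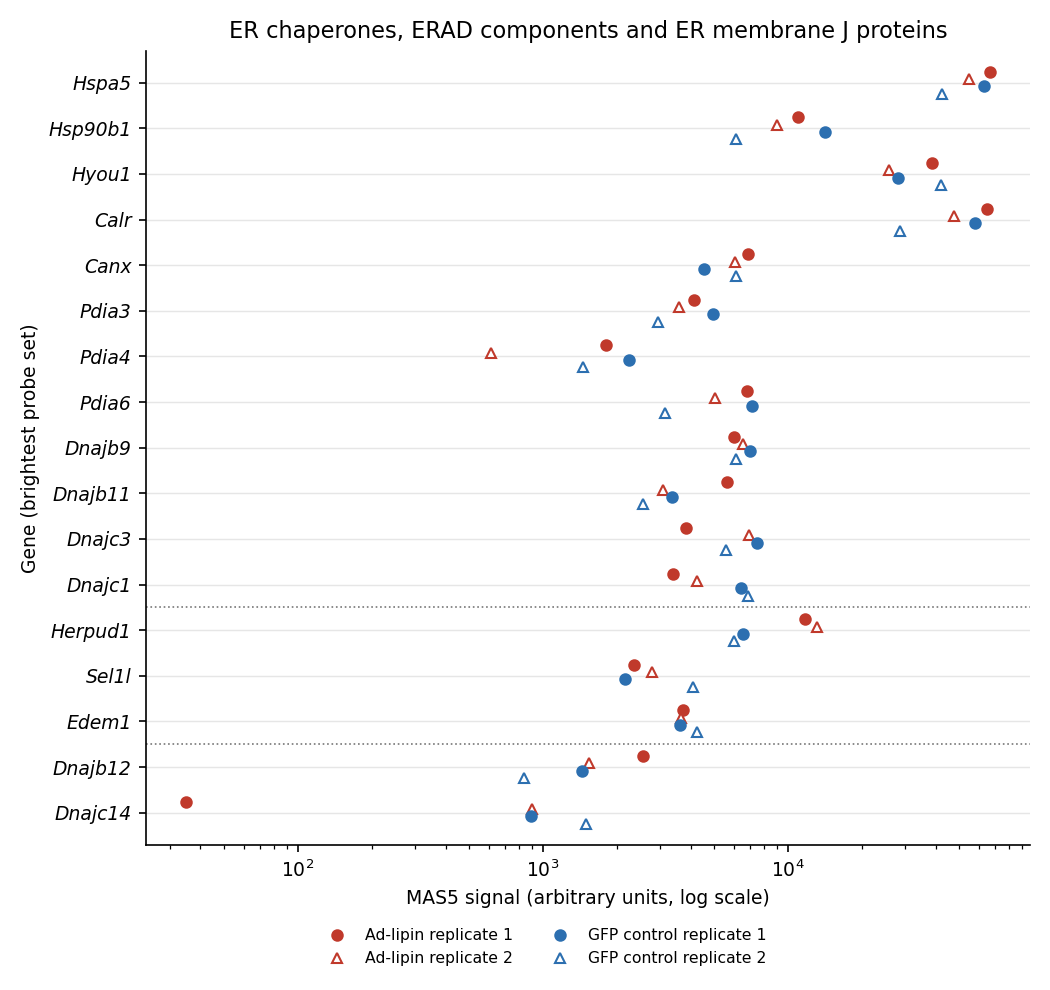
MAS5 signals (log axis) of named ER genes in each array, with Ad-lipin in red and GFP control in blue, circles for replicate 1 and open triangles for replicate 2. Dotted lines separate chaperones and isomerases, degradation components, and J proteins of the ER membrane that face the cytosol. Herpud1 and Dnajc1 show a gap between the groups, while Hspa5, Hsp90b1 and the Pdia genes overlap.

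Among J proteins anchored in the ER membrane with the J domain in the cytosol, Dnajb12, which works with Hsc70 on membrane proteins, read 2550.1 and 1535 in the Ad-lipin arrays and 1437 and 833 in the GFP arrays (0.85 ± 0.57). Its groups did not overlap. A second Dnajb12 probe set, too dim to test, ran the other way, with 101 and 78.7 in the Ad-lipin arrays and 325 and 1023 in the GFP arrays. Dnajc14, which helps export receptors from the ER, read 35.0 and 905 in the Ad-lipin arrays and 894 and 1502 in the GFP arrays. The difference of -1.82 ± 1.09 was set by the single low value of Ad-lipin replicate 1, which was raised to the floor. Without that array the difference was -0.36. The other tested Dnajc14 probe sets gave 0.12 and 0.71.

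The ER genes with an ERSE or ERSE-II shown above were then set beside those with neither. The 8 with a motif had a median log2 difference of 0.30, with 7 above 0 and 1 below. The 10 with a window and no such motif had a median of -0.13, with 3 above 0 and 7 below. The first median depended on GFP control replicate 2, the lowest array for 6 of the 8. Without it the medians were -0.059, with 3 of 8 above 0, and -0.26, with 3 of 10 above 0. Genes with and without the motif were not tested against each other. The 4 genes with a heat shock element, Hspd1, Hspe1, Hsph1 and Dnajb6, had log2 differences of 0.090 to 0.35. The 4 with an amino acid response element, Asns, Trib3, Herpud1 and Hspa14, had a median of -0.58, with 1 above 0 and 3 below.

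The sensors and transcription factors of the response lay on both sides of 0. Xbp1, the target of IRE1 and the brightest of them, read 14902 and 21218 in the Ad-lipin arrays and 16332 and 18856 in the GFP arrays (0.019 ± 0.32), and its 4 probe sets ran from 0.019 to 0.70. Spliced and unspliced Xbp1 were not told apart here, so the values do not measure IRE1 activity. Atf6 read 1805 and 1312 in the Ad-lipin arrays and 931 and 1070.4 in the GFP arrays (0.62 ± 0.59), with both Ad-lipin arrays above both GFP arrays. Ern1, encoding IRE1 alpha, was dim, with 696 and 637 in the Ad-lipin arrays and 202 and 1159 in the GFP arrays (0.46 ± 1.11), a value of -0.80 without GFP control replicate 1 and 1.72 without GFP control replicate 2. Ddit3, encoding CHOP, a factor tied to cell death under prolonged stress, was too dim to test, at 708 and 115 in the Ad-lipin arrays and 402 and 173 in the GFP arrays.

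Atf4 and its target Asns lay lower in Ad-lipin livers without passing the test. Atf4 read 1775 and 1474 in the Ad-lipin arrays and 2097 and 3573 in the GFP arrays on its brightest probe set, with both Ad-lipin arrays below both controls. The log2 difference was -0.76 ± 0.48, and -0.37 without GFP control replicate 2, while another Atf4 probe set, with 764 and 3367 in the Ad-lipin arrays and 1790.1 and 2040.4 in the GFP arrays, gave -0.25. ATF4 is controlled largely through translation, so its mRNA tells only part of its activity. Asns, the asparagine synthetase whose promoter carries the amino acid response element printed above, read 243 and 1017 in the Ad-lipin arrays and 1279 and 2477 in the GFP arrays. Both Ad-lipin arrays were below both GFP arrays, 3.58-fold lower, a log2 difference of -1.84 ± 0.81 (limma unadjusted p = 0.0380, adjusted p = 0.962) that ran from -2.87 to -0.81 with an array left out. The second Asns probe set, too dim to test, read 125 and 25.7 in the Ad-lipin arrays and 663 and 601 in the GFP arrays. Trib3, a pseudokinase induced by ATF4 and CHOP that binds Akt, read 145 and 1083 in the Ad-lipin arrays and 353 and 1582 in the GFP arrays. Its value of -0.92 ± 1.24 came from Ad-lipin replicate 1 and was 0.54 without it.

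The other genes of the integrated stress response did not follow as a group. Of 28 genes on a list made for this work 26 were on the array and 19 were tested, with a median log2 difference of -0.091, 9 above 0 and 10 below, and 0 called. The groups were separate, with Ad-lipin above, in 3 of the 19 (15.8%) and with Ad-lipin below in 4 (21.1%), near the 17.3% and 16.0% of all genes tested. Atf3, among the 3, passed the brightness filter through the Ad-lipin arrays alone, which made a difference likely. Its lowest value was raised to the floor. Without GFP control replicate 1 the median of the 19 was 0.077, with 10 above 0 and 9 below. The median of all genes tested was -0.12 without that array. Vldlr, a lipoprotein receptor induced through PERK and ATF4 in mouse liver, had the smallest p of the list at 777 and 1495 in the Ad-lipin arrays and 2511 and 3467 in the GFP arrays (-1.45 ± 0.52). Sesn2, a leucine sensor that restrains mTORC1, read 575 and 133 in the Ad-lipin arrays and 839 and 2605 in the GFP arrays (-2.42 ± 1.04). It passed the brightness filter through the GFP arrays alone, which made a difference likely. Cth, of cysteine synthesis, read 3794 and 4503 in the Ad-lipin arrays and 5592 and 7529.5 in the GFP arrays (-0.65 ± 0.36). On the other side, Cebpb, a liver transcription factor that pairs with ATF4, gave 0.70 ± 0.40, and the serine and glycine enzymes Shmt2 and Phgdh, which ATF4 also induces, gave 0.66 ± 0.41 and 0.55 ± 0.46. The genes named from this list other than Atf3 were taken by smallest p, up to 3 per direction, so their lying on both sides of 0 follows from that choice.

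**Figure D3:**
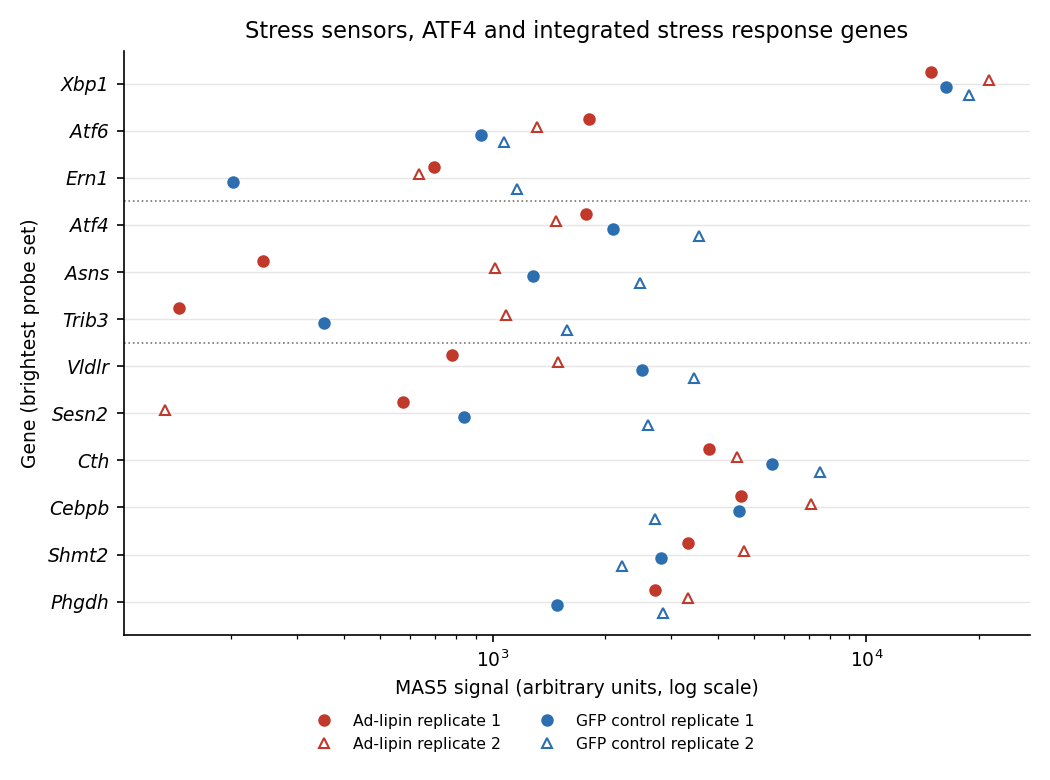
MAS5 signals (log axis) in each array for the sensors and factors of the unfolded protein response other than Atf4 (top), Atf4 with Asns and Trib3 (middle), and other integrated stress response genes (bottom). Ad-lipin arrays are red and GFP control arrays blue. Asns, Vldlr and Sesn2 lie lower in both Ad-lipin arrays than in both GFP arrays, while Cebpb and Shmt2 lie higher. Sesn2 passed the brightness filter through the GFP arrays alone.

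Cytosolic chaperones were dimmer than ER ones. Of 42 genes 34 were tested, with a median geometric mean signal of 977 against 4431 for the ER genes, and a median standard error of 0.74 against 0.40. The median log2 difference was 0.13, with 19 above 0 and 15 below, and 8 of 34 lay beyond 1 in size, 23.5%, against 1 of 20 ER genes and 20.4% of all genes tested. The groups were separate, with Ad-lipin above, in 6 of the 34 (17.6%) and with Ad-lipin below in 8 (23.5%), beside 17.3% and 16.0% of all genes. Of the tested cytosolic genes, 7 passed the brightness filter through 1 group alone, which made a difference likely. They include 6 of the 8 genes beyond 1 in size, Hspa2, Hspa4l, Dnajb2, Dnajb3, Dnajc21 and Dnajc27, and the genes at both ends of the range, so no comparison of spread with the ER genes is drawn.

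The inducible Hsp70 genes, the usual readout of a heat shock response, overlapped between the groups. Hspa1a read 1042 and 610.3 in the Ad-lipin arrays and 1050.1 and 943 in the GFP arrays (-0.32 ± 0.73). Hspa1b read 4642 and 3222 in the Ad-lipin arrays and 2379.7 and 4664 in the GFP arrays (0.22 ± 0.43), and its 3 probe sets ran from -0.22 to 1.08. These neighbouring genes of chromosome 17 are nearly identical in sequence, so their signals may be shared. Hspa8, the constitutive Hsp70 (Hsc70), was the brightest cytosolic member, with 36354 and 41485 in the Ad-lipin arrays and 32042 and 34945 in the GFP arrays (0.21 ± 0.33). The groups were separate, with Ad-lipin above, on 3 of its 4 probe sets. The second brightest of these read 30668 and 23865 in the Ad-lipin arrays and 12819 and 16574 in the GFP arrays, a log2 difference of 0.89 ± 0.32 (limma unadjusted p = 0.0150, adjusted p = 0.962). These 2 probe sets carry names (x_at) that mark probes shared with other sequences.

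The Hsp110 proteins, exchange factors for cytosolic Hsp70, did not share a direction. Hsph1 (Hsp105), with a heat shock element in its promoter window, read 4005 and 3493 in the Ad-lipin arrays and 3589 and 2683 in the GFP arrays (0.27 ± 0.39). Hspa4 read 1414 and 1609 in the Ad-lipin arrays and 3348 and 1921 in the GFP arrays (-0.75 ± 0.49), with separate groups, but a second tested probe set gave -0.045. Hspa4l, named after its values were seen, had the lowest log2 difference of all members at -1.91 ± 1.02. It read 244 and 358 in the Ad-lipin arrays and 763 and 1625 in the GFP arrays, its second probe set gave -2.07, and it passed the filter through the GFP arrays alone.

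Hsp90aa1, the inducible cytosolic Hsp90 that matures kinases and steroid receptors, was bright and marked by a single array. It read 17802 and 11582 in the Ad-lipin arrays and 34907 and 16734 in the GFP arrays, so GFP control replicate 1 was the high array. The log2 difference of -0.75 ± 0.38 was -0.22 without that array. Its other probe sets repeated the pattern, with 5337 and 5346 in the Ad-lipin arrays and 20938 and 6129 in the GFP arrays on one and 2779.7 and 2159.6 in the Ad-lipin arrays and 15168 and 2471 in the GFP arrays on the other.

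The small heat shock proteins, which hold unfolded proteins without ATP, pointed in opposite directions. Hspb8, the partner of Bag3 in selective autophagy, read 7142 and 6218 in the Ad-lipin arrays and 3958 and 3959 in the GFP arrays, 1.68-fold higher with little spread. The log2 difference was 0.75 ± 0.35 (limma unadjusted p = 0.0472, adjusted p = 0.962), but the other Hspb8 probe sets gave -0.24 and -0.092. Hspb1 (Hsp25 in mouse) read 2302 and 1288 in the Ad-lipin arrays and 2383 and 4798 in the GFP arrays (-0.97 ± 0.49), with both Ad-lipin arrays lower, and -0.47 without GFP control replicate 2.

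Cytosolic J proteins held the highest log2 differences of all tested members. Dnaja1 and Dnajb1, the general partners of Hsc70 and Hsp70, were near 0: Dnaja1 read 8506 and 7523 in the Ad-lipin arrays and 7937 and 6202 in the GFP arrays (0.19 ± 0.33). Dnajb1 read 3504 and 2484 in the Ad-lipin arrays and 2359.9 and 3805 in the GFP arrays (-0.023 ± 0.43), while a dimmer Dnajb1 probe set gave 1.85. Dnajb2, which binds ubiquitin and sorts clients to the proteasome, read 1973 and 1333 in the Ad-lipin arrays and 892 and 109.8 in the GFP arrays (2.31 ± 0.99; limma unadjusted p = 0.0339, adjusted p = 0.962). Dnajc12, a co-chaperone of phenylalanine hydroxylase and related enzymes, read 2609 and 1588 in the Ad-lipin arrays and 1009 and 189 in the GFP arrays (2.22 ± 0.83; limma unadjusted p = 0.0176, adjusted p = 0.962). In both genes GFP control replicate 2 was far below GFP control replicate 1, and without it the differences were 0.86 and 1.01. Dnajb2 passed the filter through the Ad-lipin arrays alone, and its lowest value was raised to the floor. Dnajc5, the cysteine string protein of secretory vesicles, had the largest disagreement between probe sets, from -0.96 to 2.11, and its brightest read 1511 and 1374 in the Ad-lipin arrays and 2967 and 2659 in the GFP arrays (-0.96 ± 0.46).

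**Figure D4:**
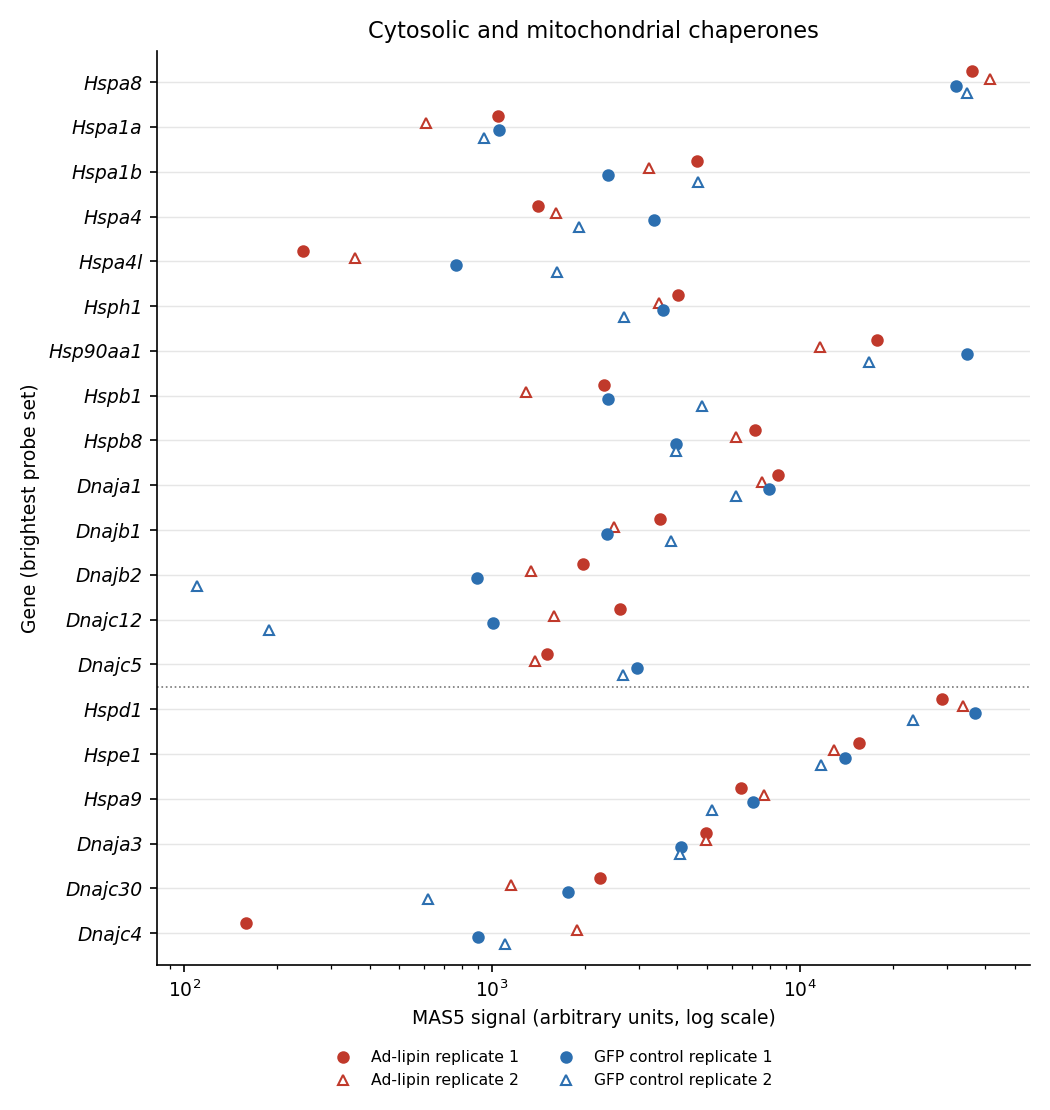
MAS5 signals (log axis) of named cytosolic genes (above the dotted line) and mitochondrial genes (below it) in each array, Ad-lipin in red and GFP control in blue. Hspb8 shows tight replicates with a gap between groups, Dnajb2 and Dnajc12 have a single low GFP array, and Hsp90aa1 a single high one.

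Mitochondrial chaperones differed little, with a median size of the log2 difference of 0.22 against 0.45 over all genes tested. Their median geometric mean signal was 2151, against 1160 for all genes tested, and their median standard error 0.46, against 0.66. The part of brightness in the smaller size was not tested. All 9 were tested, 8 lay above 0, and the median log2 difference was 0.18, or 0.011 without GFP control replicate 2, which was the lowest array for 6 of the 9. Hspd1 (Hsp60) and Hspe1 (Hsp10) form the folding chamber of the matrix and share the promoter printed above. Hspd1 read 28935 and 33806 in the Ad-lipin arrays and 37175 and 23234 in the GFP arrays (0.090 ± 0.34), and Hspe1 15559 and 12872 in the Ad-lipin arrays and 13991 and 11701 in the GFP arrays (0.15 ± 0.32). In both genes the groups overlapped. Hspa9 (mortalin), the Hsp70 that pulls proteins into the matrix, read 6458 and 7641 in the Ad-lipin arrays and 7064 and 5174 in the GFP arrays (0.22 ± 0.34). Dnaja3, its J protein partner, read 4954 and 4963 in the Ad-lipin arrays and 4095 and 4072 in the GFP arrays (0.28 ± 0.36), the sole mitochondrial gene of the 9 with both Ad-lipin arrays above both controls. Dnajc30, at 2245 and 1151 in the Ad-lipin arrays and 1759 and 619 in the GFP arrays (0.62 ± 0.66), and Dnajc4, at 159 and 1886 in the Ad-lipin arrays and 903 and 1098 in the GFP arrays (-0.86 ± 1.05), marked the ends of the range. Hspg2, perlecan, gave 0.42 ± 0.48.

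Set against each other, ER and cytosolic genes gave differences that overlapped between the groups. The ER median minus the cytosolic median was -0.16 on the log2 scale. Within arrays, as deviations from the mean of all 4, this difference was 0.0044 and 0.073 in the Ad-lipin arrays and 0.072 and -0.055 in the GFP arrays. The pooled standard deviation of these array values within groups was 0.072. Medians within arrays need not add up to the difference of medians, so 0.072 is not the error of -0.16. As a group, the Ad-lipin array values were not lower than the GFP ones. Leaving out an array took the difference of medians to 0.16 without Ad-lipin replicate 1, to -0.029 without Ad-lipin replicate 2, to 0.34 without GFP control replicate 1 and to -0.12 without GFP control replicate 2. GFP control replicate 2 was often the low array: 28 of 70 member genes had their lowest value in GFP control replicate 2, against 27.2% of all genes tested, as did 9 of 20 ER, 13 of 34 cytosolic and 6 of 9 mitochondrial genes. The regulators and stress targets differed from this, with 0 of 6 lowest and 4 of 6 highest in that array. It was also the highest array for 2905 of all 8493 genes tested and for 18 of 70 member genes. Over all genes tested it was the array most often at either end. This is the array with the highest actin ratio, and the part of RNA quality in these values was not tested.

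**Figure D5:**
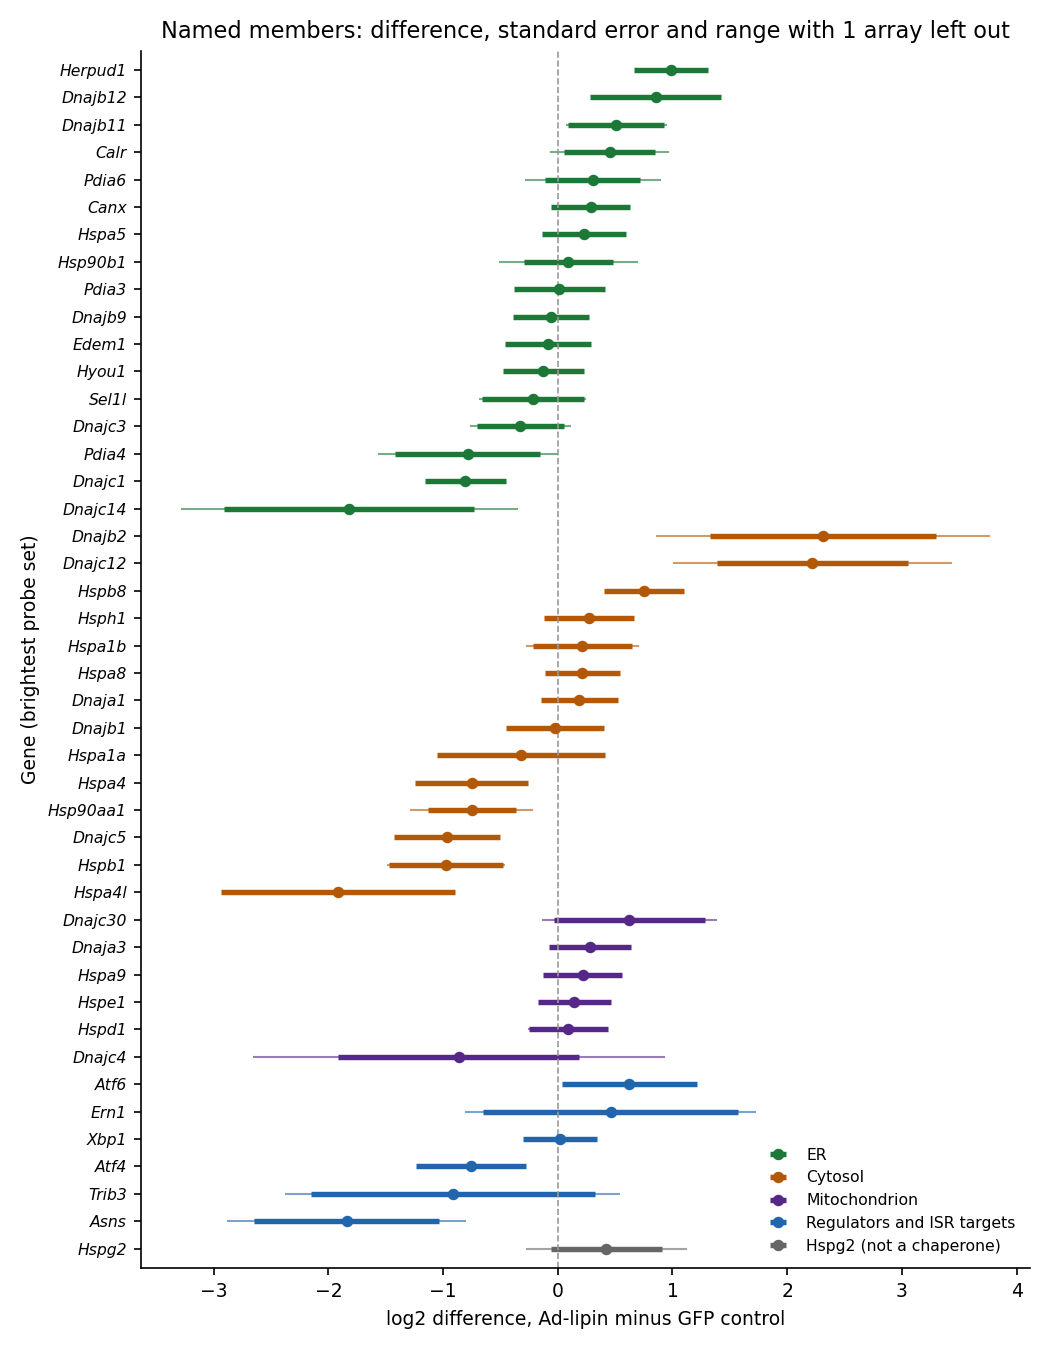
Log2 difference, Ad-lipin minus GFP control, of each named member (point), with its standard error from limma (thick bar) and the range when each array is left out in turn (thin line), coloured by compartment. Herpud1, Dnajc1, Hspb8, Dnajc5, Dnaja3 and Hspa8 are among those with a narrow range on one side of 0, whereas Dnajc14, Dnajb2, Dnajc4 and Trib3 move widely. The range is that of the brightest probe set alone, and other probe sets of Hspb8 and Dnajc5 lay on the other side of 0.

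Other genes of these pathways, from lists made for this work, were read in the same fit, and 0 of them passed. Of 34 further ER stress, translocation and degradation genes tested, the groups were separate with Ad-lipin above in 12 (35.3%) and with Ad-lipin below in 1 (2.94%), beside 17.3% and 16.0% of all genes tested, with a median log2 difference of 0.23, 21 above 0 and 13 below. Without GFP control replicate 2 the median was 0.075, with 22 above 0. Creld2, an ER stress-induced secretory protein, read 3003 and 2529 in the Ad-lipin arrays and 1391 and 709 in the GFP arrays (1.47 ± 0.54). Manf, a small ER protein secreted under stress, read 3736 and 4149 in the Ad-lipin arrays and 2255 and 2398 in the GFP arrays (0.76 ± 0.40), and Mogs, the glucosidase that starts glycan trimming, 2709 and 2503 in the Ad-lipin arrays and 1376 and 873 in the GFP arrays (1.25 ± 0.51). The lowest p on the other side belonged to Sec62 (-0.48 ± 0.33) and Ssr3 (-0.20 ± 0.33) of the translocation channel and Derl1 (-0.26 ± 0.33) of ER-associated degradation.

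Of 25 further heat shock and folding genes tested, nearly all cytosolic, 10 had separate groups with Ad-lipin above and 3 with Ad-lipin below, where 17.3% and 16.0% of all genes did, with a median of 0.26 and 18 above 0. The median was 0.11, with 15 above 0, without GFP control replicate 2. Pfdn2, among those with Ad-lipin above, passed the brightness filter through the Ad-lipin arrays alone, which made a difference likely. Stub1, the ubiquitin ligase CHIP that tags Hsp70 clients, read 3105 and 1991 in the Ad-lipin arrays and 1334 and 190.2 in the GFP arrays (2.30 ± 0.82), a value of 0.90 without GFP control replicate 2. Stip1 (Hop), the bridge from Hsp70 to Hsp90, gave 1.32 ± 0.66, and Cct5 and Cct4, subunits of the same TRiC folding ring, gave 1.18 ± 0.53, or 0.25 without GFP control replicate 2, and -0.56 ± 0.32. Serpinh1, the collagen chaperone of the ER that HSF1 induces, gave -1.51 ± 0.97, or -0.34 without Ad-lipin replicate 2, and the small heat shock protein Cryab -0.74 ± 0.83. The 10 further mitochondrial genes tested had a median of -0.29, with 3 above 0 and 7 below, and of -0.15 without GFP control replicate 1. Without that array the median of all genes tested was -0.12, against 0.0015 with every array. The groups were separate with Ad-lipin above in 1 of the 10 mitochondrial genes and with Ad-lipin below in 5, where 17.3% and 16.0% of all genes were. Those with the smallest p included Hscb (-1.17 ± 0.74), a J protein of iron-sulfur assembly, the protease Yme1l1 (-0.50 ± 0.43) and the Hspa9 exchange factor Grpel2 (-0.57 ± 0.59), with Clpp (0.32 ± 0.43), Grpel1 (0.31 ± 0.43) and Afg3l2 (0.24 ± 0.49) at the upper end. The lists were described by counts and not tested as sets.

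Probe sets of a gene were also compared on the same arrays, which does not measure the spread between samples. Of 33 member genes with several tested probe sets, 21 had all log2 differences of one sign. The median range within such a gene was 0.57. The median size of a member's log2 difference was 0.43, from the brightest probe set alone of each of 70 genes. A range over several probe sets, dim ones included, tends to be larger, so the values are not compared. The widest range, 3.07, was that of Dnajc5. In all, 41 member probe sets were too dim to test. The 9 genes too dim to test were Ddit3, Dnaja4, Dnajc17, Dnajc24, Dnajc5b, Hspa12b, Hspa1l, Hspb2 and Hspb3, with single signals from 13.5 to 1066.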

How the data were processed

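The authors deposited 1 linear intensity per probe set and array, which the submitters' processing notes credit to MAS5. Its version and scaling target, and the genome build, are not stated in what was used here. Every array had the same trimmed mean, 1501, and no further scaling was applied. The 64 control probe sets were left out, values under 119.5 (the 20th percentile) were set to it before log2, and those averaging at least the 40th percentile were fitted with limma 3.58.1 in R 4.3.3 (group alone, eBayes with an intensity trend), with Benjamini-Hochberg adjustment over all 13576, two-sided. With 2 residual degrees of freedom the spread is pooled over probe sets. An exact test of 2 against 2 arrays cannot go below p = 0.333. No detection calls were used, and the number of arrays limits the precision. The fit was tested on simulated data.

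Genes were named from the platform annotation, and all 163 member probe sets matched the RefSeq table by Entrez identifier; 2 probe sets with several symbols were left out. Members, compartments, lists and tests were chosen with earlier results of these data known. Named are 36 genes chosen for their known role, where tested, up to 3 genes per direction in each compartment and in each further list by smallest p, and Lpin1. Atf3 and Pfdn2 are named for the brightness filter alone. The correlation of replicate differences between the groups was 0.028 over all tested probe sets and 0.26 over the 122 of the members; with only 2 pairs and no label that ties them, the numbers were not taken as pairs. Alternatives covered scaling, floor, filter, moderation, the replicate block, leaving out arrays, and the choice of probe sets.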

Additional observations from a re-analysis of the deposited data

How the results depend on the processing

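At a limma unadjusted p under 0.05, the alternatives that gave a p and kept every array had 5 to 15 member probe sets. The count over all probe sets tested moved too. It was 533 of 13576, against 5 of 122 members, in eBayes without a trend. With the replicate number as a block it was 868 of 13576, against 15 of 122. With no filter it was 1303 of 22626, against 8 of 163. At a limma adjusted p under 0.05, 0 member probe sets were called under each of these alternatives. Among all probe sets the count was 0 except with the replicate number as a block (replicate block), which called 52, 34 higher and 18 lower, and without 1 array, where it ran from 0 without GFP control replicate 1 to 14 without Ad-lipin replicate 1. In the block fit, which adds no shared source to the samples because only a number is shared, the lowest member adjusted p was 0.0771 and the prior degrees of freedom were infinite. The ER minus cytosolic median moved from -0.16 to 0.0022 with no floor except 1 unit, to -0.074 with no filter, to -0.0077 with the filter at the 60th percentile and to -0.29 without probe sets ending in s_at, x_at or a_at, and ran from -0.12 to 0.34 without 1 array. Leaving out 1 array, the ER median ran from -0.20 to 0.14, the cytosolic from -0.21 to 0.17 and the mitochondrial from 0.011 to 0.28. Over the same fits, in which the filter was redone, the median of all genes tested ran from -0.15 to 0.081. Signs turned to 0.0071 for Dnajb1 with arrays centred on their median, and with probe sets averaged per gene to -0.11 for Hsp90b1, -0.29 for Canx, 0.025 for Dnajc3, 0.91 for Dnajb1, 0.72 for Dnajc5 and 0.30 for Derl1. The cause was not tested. Of 44 named members 21 kept 1 sign in every alternative. Of 24 other pathway genes 20 did. All of these 24 were named by smallest p, which favours a steady sign, so the counts are not compared. Those whose sign turned with 1 array left out were Afg3l2 (-0.34 to 0.82), Calr (-0.059 to 0.96), Derl1 (-0.55 to 0.035), Dnajb1 (-0.37 to 0.32), Dnajb9 (-0.16 to 0.037), Dnajc3 (-0.76 to 0.10), Dnajc30 (-0.13 to 1.38), Dnajc4 (-2.65 to 0.92), Edem1 (-0.20 to 0.029), Ern1 (-0.80 to 1.72), Grpel1 (-0.17 to 0.78), Hsp90b1 (-0.51 to 0.69), Hspa1a (-0.71 to 0.066), Hspa1b (-0.27 to 0.70), Hspa5 (-0.059 to 0.51), Hspa9 (-0.0081 to 0.44), Hspd1 (-0.25 to 0.43), Hspg2 (-0.27 to 1.12), Hyou1 (-0.42 to 0.17), Pdia3 (-0.36 to 0.39), Pdia6 (-0.28 to 0.89), Sel1l (-0.67 to 0.24), Ssr3 (-0.51 to 0.12), Trib3 (-2.37 to 0.54) and Xbp1 (-0.24 to 0.27).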
